A study of Mus musculus with 12 samples.

Results

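Transcript levels of 9 enzymes of amino acid metabolism that are known or proposed targets of the transcription factor ATF4 were followed in mouse embryonic stem cells. The enzymes make or use phosphoenolpyruvate (Pck2), proline (Aldh18a1, Pycr1), cysteine (Cbs, Cth), alanine (Gpt2), aspartate (Got1), glutamine (Glul) and branched-chain amino acids (Bcat1). They were taken by gene symbol, as 9 of the 22416 genes in the count table, and all 9 passed the filter on low counts that left 13239 genes. The cells were eIF2α+/+ (WT) or eIF2αA/A (KI), in which the product of Eif2s1, a subunit of a translation initiation factor, can no longer be phosphorylated at its regulatory serine. Both genotypes were held for 6 days in serum-replacement medium with leukaemia inhibitory factor alone (LIF) or with LIF and the MEK and GSK3 inhibitors PD0325901 and CHIR99021 (LIF/2i). Each of the 4 groups had 3 RNA-seq libraries. All groups share a medium that contains non-essential amino acids, a glutamine source and pyruvate, and all lysates were prepared with cycloheximide. The labels do not say how many lines or clones stand behind a genotype, or whether replicates are separate cultures. P-values therefore reflect only how these samples vary, and that variation may be technical.

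Phosphorylation of eIF2α by stress kinases lowers general translation and favours translation of the Atf4 mRNA. ATF4 protein, paired with C/EBP family partners, binds composite elements in the promoters of genes for amino acid synthesis, amino acid transport and tRNA charging. In embryonic stem cells, the inhibitors of LIF/2i hold the naive state, and their removal lets ERK signalling resume. Glutamine, proline and threonine metabolism are known to bear on the state of these cells.

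The promoters of the enzymes were read for the ATF4 and C/EBP composite element TGATGNAA on both strands, which is TTNCATCA on the opposite strand. The windows ran from 250 bases before to 50 bases after the RefSeq start (GRCm38.p6), and 8 of the 9 enzymes had one, all but Cth. A match was found in 3 of these 8 genes (37.5%), against 1219 of all 27025 genes with a window (4.51%). The 3 promoters with a match are shown with the matching letters in capitals, 5′ to 3′ on the strand of the gene. Pck2 lies at chr14:55540016-55540265 on the plus strand, Pycr1 at chr11:120643749-120643998 on the minus strand and Got1 at chr19:43524606-43524855 on the minus strand, each being the 250 bases before the start.
Pck2: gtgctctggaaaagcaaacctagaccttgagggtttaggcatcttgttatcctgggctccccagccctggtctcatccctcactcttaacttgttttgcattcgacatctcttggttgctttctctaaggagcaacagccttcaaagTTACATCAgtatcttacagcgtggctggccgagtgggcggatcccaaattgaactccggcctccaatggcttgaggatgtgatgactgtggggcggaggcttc
Pycr1: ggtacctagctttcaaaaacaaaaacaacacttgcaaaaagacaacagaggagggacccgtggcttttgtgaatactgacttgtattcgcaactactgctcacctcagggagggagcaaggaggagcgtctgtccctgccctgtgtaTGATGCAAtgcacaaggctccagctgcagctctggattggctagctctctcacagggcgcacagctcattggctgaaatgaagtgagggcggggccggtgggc
Got1: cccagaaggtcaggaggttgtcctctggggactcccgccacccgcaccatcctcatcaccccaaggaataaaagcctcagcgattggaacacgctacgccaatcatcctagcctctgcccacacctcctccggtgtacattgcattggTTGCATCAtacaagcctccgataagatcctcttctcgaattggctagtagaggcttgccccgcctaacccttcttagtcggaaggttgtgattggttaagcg
Pck2 and Got1 hold the element on the opposite strand, at 103 and 102 bases before the start, and Pycr1 holds it on the gene's own strand at 103 bases. The RefSeq start of Pycr1 is not that of the counted transcript, which begins at position 120643670. Of other ATF4 targets, 12 of 35 genes with a window held the element (34.3%), and of other amino acid enzymes 1 of 27 did (3.7%). A match says only that these letters are present in the window, and binding was not measured.

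The libraries held 2307219 to 9713857 counts, with the lowest totals among the KI LIF libraries (2307219 to 4609908). The counts of WT LIF replicates 1 and 3 differed less than sampling noise allows (chi-square per degree of freedom 0.858, against 2.61 to 40.2 for other pairs) and were counted as 1 sample, so WT LIF has n = 2 and the other groups n = 3. All 8 pluripotency markers were detected in every sample. Their summed levels were 2880 to 3304 CPM in LIF/2i and 2094 to 2656 CPM in LIF (CPM, counts scaled by TMM to a common library total). The sums were lower in every LIF sample than in every LIF/2i sample. By edgeR 3 of 8 fell between media in each genotype, against 6.69% of all genes in WT and 5.01% in KI. In KI 2 of 8 were above 0. Mean Pou5f1 was at 978 ± 151 CPM in KI LIF/2i and 1061 ± 89.2 in KI LIF, and Sox2 at 490 ± 101 and 601 ± 39.5. The part of this shift in the medium results of the enzymes was not tested. Summed Y-linked transcripts were 46.2 to 276 CPM in WT samples and 1.51 to 42.2 CPM in KI samples, so the mutation cannot be told apart from other differences between the WT and KI lines. Markers of other cell types were present in all groups, and their sums stand beside the results they move with. The level of Eif2s1 was 25.7 ± 2.32 CPM in WT LIF/2i, 30.5 ± 2.87 in WT LIF, 44.2 ± 13.3 in KI LIF/2i and 37.0 ± 1.00 in KI LIF (SD, n = 3, n = 2 for WT LIF). Counts per gene do not show the point mutation. In bulk RNA, fewer cells of a kind and less RNA per cell cannot be told apart.

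Compared per kilobase of coding sequence, the 9 enzymes spanned a wide range of levels. In WT LIF/2i, Bcat1 was highest at 364 ± 70.2 CPM per kilobase, followed by Got1 at 212 ± 9.62 and Cth at 199 ± 80.4. Got1 and Cth did not differ beyond their spread there. Pycr1, Gpt2, Pck2, Aldh18a1 and Cbs followed at 36.2, 33.4, 30.5, 29.4 and 23.4 CPM per kilobase in that order, with neighbours closer than their spread. Glul was lowest at 6.16 ± 1.44. The order changed with genotype and medium. In WT LIF, Got1 was highest at 222 ± 6.98 CPM per kilobase and Bcat1 was at 188 ± 45.0, within the spread of Bcat1. In KI LIF/2i, Bcat1 reached 502 ± 224, and in KI LIF it stood at 126 ± 90.7 against 171 ± 21.03 for Got1, within the spread of Bcat1.

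**Figure D1:**
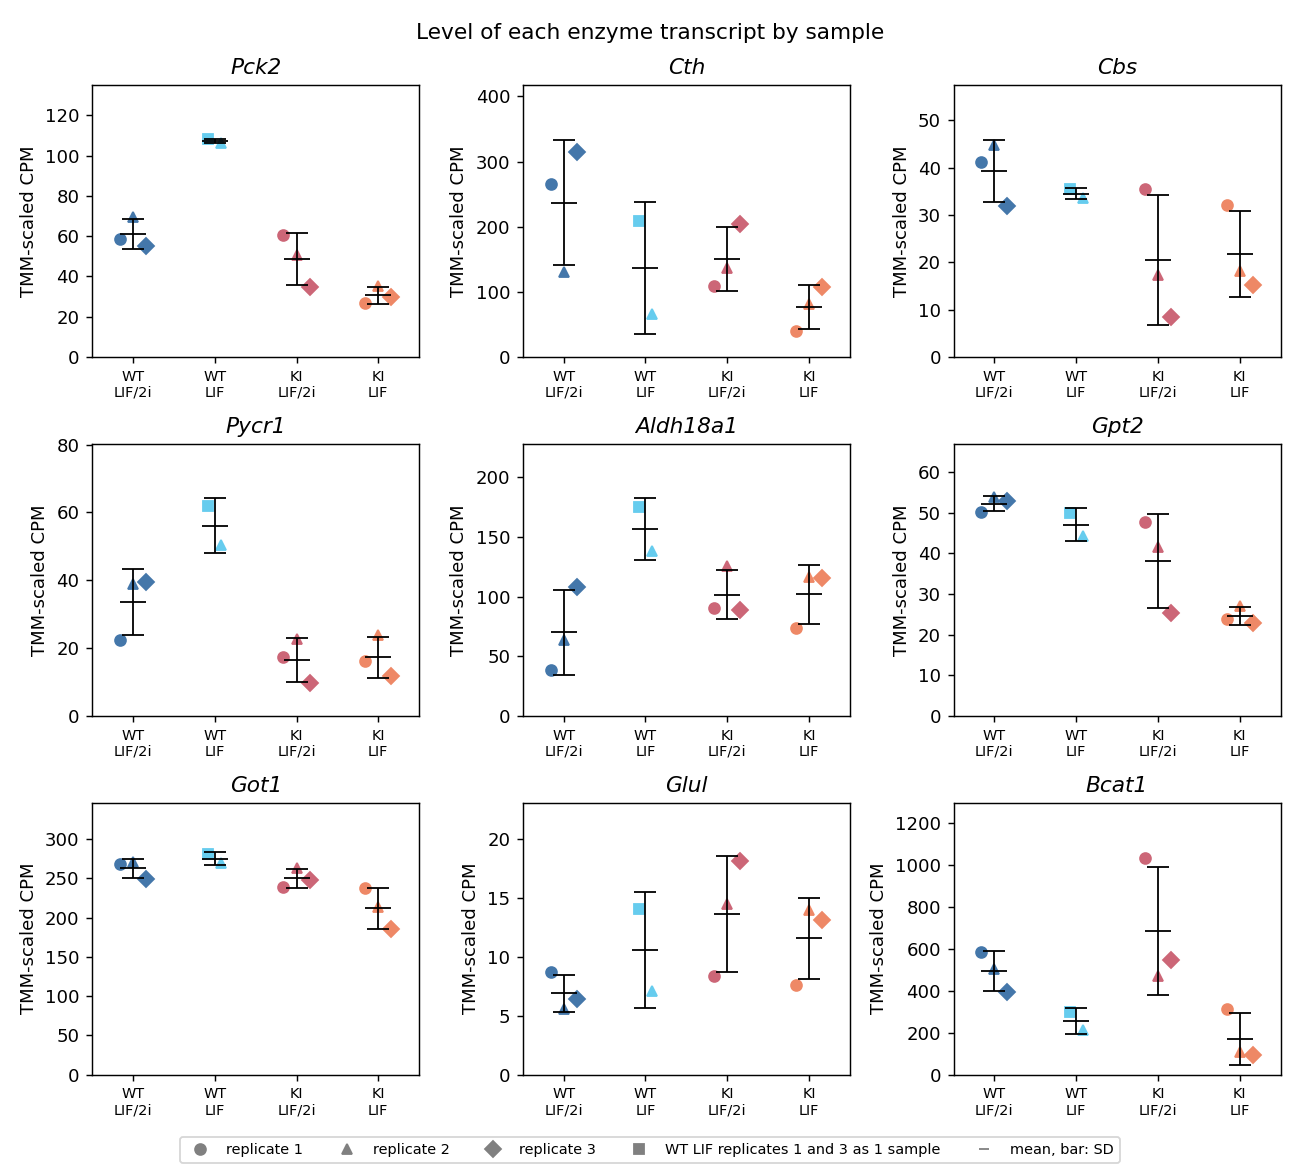
Level of each enzyme transcript in TMM-scaled CPM (vertical axes, from 0) in the 4 groups (horizontal axes). Points are samples, shaped by replicate number, and black bars give the mean and SD. Pck2 stands at 106 to 108 CPM in WT LIF and at 26.7 to 35.1 in KI LIF, and Bcat1 lies lower in LIF than in LIF/2i in both genotypes.

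Pck2, the mitochondrial phosphoenolpyruvate carboxykinase, which turns oxaloacetate into phosphoenolpyruvate, was the member with the smallest p between genotypes in LIF. It lies on chromosome 14, from 55540266 to 55550017 (GRCm38, transcript ENSMUST00000048781). In WT cells its level was 58.6, 69.7 and 55.0 CPM with the inhibitors and 108 and 106 CPM without. In KI cells it was 60.6, 50.7 and 34.9 CPM with them and 26.7, 35.1 and 30.04 CPM without. The WT LIF samples were the highest of all, the KI LIF samples were all below WT samples of either medium, and the LIF/2i groups overlapped. In LIF, Pck2 fell in KI relative to WT by 1.80 ± 0.22 (SE) on the log2 scale, or 3.49-fold (edgeR, adjusted p = 0.0101, rank 3 by p among all genes tested). In WT cells it rose on removal of the inhibitors by 0.81 ± 0.21 on the log2 scale (adjusted p = 0.0284). The KI difference between media was -0.67 ± 0.20 (adjusted p = 0.0632), and the KI to WT difference in LIF/2i was -0.33 ± 0.20 (adjusted p = 0.37). DESeq2 called the former (-0.65, adjusted p = 0.0429) and limma-voom did not (-0.64, adjusted p = 0.127). It was called in 4 of 16 alternatives.

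Both Pck2 calls of the main edgeR fit rest on few samples. The KI to WT call in LIF was lost without KI LIF replicate 2 (log2 fold change -1.93, adjusted p = 0.0616), KI LIF replicate 3 (-1.79, 0.0845), WT LIF replicate 2 (-1.83, 0.0561) or the agreeing WT pair (-1.79, 0.0933), with nearly the same size each time. The rise in WT did not pass without WT LIF replicate 2 (0.82, adjusted p = 0.147), WT LIF/2i replicate 1 (0.77, 0.102) or replicate 3 (0.74, 0.0687), or the agreeing pair (0.80, 0.138). Its cytosolic counterpart Pck1 had 0 to 2 counts per sample, which is at or below the floor of 3 counts, and Pck2 made up 97.1 to 100% of both per kilobase.

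In LIF, markers of primitive endoderm and trophectoderm also stood higher in WT than in KI samples. The 16 primitive endoderm markers summed to 1399 and 1875 CPM in WT LIF and to 931 to 1124 CPM in KI LIF, and to 407 to 688 CPM in the LIF/2i samples. Of the 14 tested, 1 was lower in KI in LIF (Lama1), and Sox17 and Foxa2 were at 0 in some KI LIF samples. The 10 trophectoderm markers summed to 384 and 501 CPM in WT LIF, 241 to 277 CPM in KI LIF and 196 to 267 CPM in LIF/2i, with Elf5 at 0 in all KI samples and Cdx2 at 0 in some. Of 10 fibroblast markers, the 9 other than Fn1 summed to 56.9 and 587 CPM in WT LIF, 175 to 225 CPM in KI LIF, 4.80 to 7.30 CPM in WT LIF/2i and 12.4 to 51.2 CPM in KI LIF/2i, with Lum at 0 in all samples. Fn1 itself, at 1590 to 5256 CPM, was higher in every LIF/2i sample than in every LIF sample. The part of these cells in the enzyme results was not tested. Pck2 was at 108 and 106 CPM in the WT LIF samples whose fibroblast sums were 56.9 and 587 CPM. In the same order, their primitive endoderm sums were 1399 and 1875 CPM and their trophectoderm sums 384 and 501 CPM.

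Proline is made from glutamate by Aldh18a1, the mitochondrial synthase that commits glutamate to the pathway, and later by Pycr1, a mitochondrial pyrroline-5-carboxylate reductase. Aldh18a1 (chromosome 19, 40550257 to 40588463) was at 38.1, 64.0 and 108 CPM in WT LIF/2i and reached 175 and 138 CPM in WT LIF. KI cells in LIF/2i were at 90.8, 126 and 88.6 CPM, and those in LIF at 73.4, 117 and 116 CPM. WT LIF stood above every other group, and the KI groups overlapped each other. Aldh18a1 rose in WT on removal of the inhibitors by 1.18 ± 0.34 on the log2 scale (2.26-fold, edgeR adjusted p = 0.0433). In KI the same difference was 0.0022 ± 0.31 (adjusted p = 0.997). The KI to WT difference was 0.55 ± 0.31 in LIF/2i (adjusted p = 0.345) and -0.62 ± 0.35 in LIF (adjusted p = 0.561). This rise did not pass without WT LIF replicate 2 (1.33, adjusted p = 0.119), WT LIF/2i replicate 1 (0.87, 0.119) or replicate 2 (1.10, 0.121), the agreeing pair (0.99, 0.228), with no filter (1.17, 0.0674) and with only the groups compared (1.18, 0.0615).

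Pycr1 (chromosome 11, 120635712 to 120643670) was at 22.3, 38.9 and 39.5 CPM in WT LIF/2i and at 61.8 and 50.3 CPM in WT LIF. KI samples in LIF/2i were at 17.2, 22.7 and 9.57 CPM, and those in LIF at 16.3, 23.8 and 11.8 CPM. The WT LIF samples were highest, and the highest KI sample was just above the lowest WT sample. Against WT, KI samples differed by -1.67 ± 0.37 on the log2 scale in LIF (edgeR adjusted p = 0.12, rank 83 by p) and -1.01 ± 0.34 in LIF/2i (adjusted p = 0.126), neither past the threshold of 0.05. DESeq2 called both (-1.67, adjusted p = 0.00434 and -1.04, adjusted p = 0.0478). In LIF it was also called with 12 libraries counted separately (-1.71, adjusted p = 0.0299) and with the replicate block (-1.77, adjusted p = 0.0273). Both of these settings count the agreeing WT LIF pair as independent replicates. The WT difference between media was 0.74 ± 0.36 (adjusted p = 0.206) and the KI difference 0.09 ± 0.35 (adjusted p = 0.917).

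Cysteine is made from homocysteine by Cbs, which forms cystathionine, and Cth, which cleaves it. Cbs (chromosome 17, 31608894 to 31637199) was at 41.2, 44.8 and 31.9 CPM in WT LIF/2i, 35.4 and 33.7 CPM in WT LIF, 35.5, 17.4 and 8.56 CPM in KI LIF/2i and 32.2, 18.2 and 15.2 CPM in KI LIF. KI replicate 1 was within the range of WT LIF/2i samples in both media but below both WT LIF samples in LIF, and KI replicates 2 and 3 were below every WT sample. KI replicate 1 was also the KI replicate with the highest Y-linked sum, 42.2 and 36.0 CPM against 1.51 to 3.81 CPM in the others. The KI to WT difference of Cbs was -0.93 ± 0.41 on the log2 scale in LIF/2i (edgeR adjusted p = 0.226) and -0.66 ± 0.46 in LIF (adjusted p = 0.666). The first of these was called when KI LIF/2i replicate 1 was left out (-1.60, adjusted p = 0.0225).

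Cth (chromosome 3, 157894248 to 157925077) was at 266, 130 and 315 CPM in WT LIF/2i, 208 and 65.6 CPM in WT LIF, 110, 137 and 205 CPM in KI LIF/2i and 40.2, 82.2 and 108 CPM in KI LIF. WT replicate 2 was the lowest WT sample in each medium and also had the lowest Y-linked sums of the WT samples, 46.2 and 75.0 CPM. The KI samples in LIF were all below those in LIF/2i. Unpaired, that difference was -0.97 ± 0.46 on the log2 scale (edgeR adjusted p = 0.232), and the KI to WT differences were -0.65 ± 0.45 in LIF/2i (adjusted p = 0.434) and -0.84 ± 0.51 in LIF (adjusted p = 0.595). Without the agreeing WT LIF pair the latter turned to 0.22 (adjusted p = 0.974). KI replicate 1, the highest KI sample for Cbs in each medium, was the lowest for Cth in each.

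KI samples of the same number deviated together across media (r = 0.5, 0.37 and 0.22 for replicates 1, 2 and 3). Pairs of unlike number had r of -0.42 to 0.21. The highest of these, KI LIF replicate 3 with KI LIF/2i replicate 2, nearly equalled the pair of number 3. A fit of the 6 KI libraries with the replicate number as a block was made, the pairing being read from these same data. In it Cth was lower in LIF than in LIF/2i by -1.01 on the log2 scale (edgeR adjusted p = 0.0014) and Bcat1 by -2.11 (adjusted p = 3.45e-05), while Pck2 was at -0.64 (adjusted p = 0.0521) and 8.22% of all genes were lower. With the block over all 12 libraries Pck2 was lower as well (-0.65, adjusted p = 0.0408), with 6.1% of all genes lower. By replicate number, Cth was lower in LIF by -1.45, -0.74 and -0.93, in 3 of 3 replicates. Cbs was at -0.14, 0.06 and 0.83, lower in 1 of 3.

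**Figure D2:**
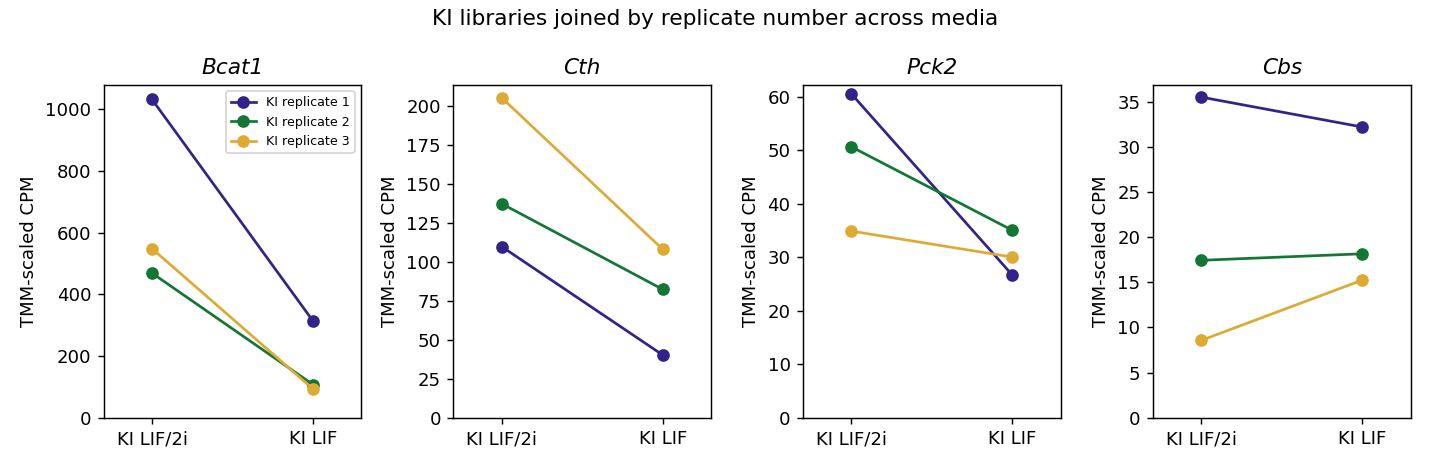
Levels of Bcat1, Cth, Pck2 and Cbs in KI samples in LIF/2i and LIF, in TMM-scaled CPM (vertical axes, from 0). Lines join samples with the same replicate number. Bcat1 and Cth fall along all 3 lines, and the Cbs lines are nearly level for replicates 1 and 2.

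Gpt2, the mitochondrial alanine transaminase, transfers nitrogen between glutamate and pyruvate. Gpt2 (chromosome 8, 85492576 to 85527560) was at 50.1, 53.8 and 52.9 CPM in WT LIF/2i, 49.9 and 44.3 CPM in WT LIF, 47.8, 41.5 and 25.3 CPM in KI LIF/2i and 23.9, 27.1 and 22.8 CPM in KI LIF. WT samples were close together, and the KI samples lay below the WT samples of the same medium in both media. Against WT, the KI difference was -0.45 ± 0.21 on the log2 scale in LIF/2i (edgeR adjusted p = 0.25) and -0.93 ± 0.24 in LIF (adjusted p = 0.181). The LIF difference was called by DESeq2 (-0.92, adjusted p = 0.0413), with 12 libraries counted separately (-0.95, adjusted p = 0.0493) and with the replicate block (-0.96, adjusted p = 0.0457). Separate libraries and the block count the agreeing WT LIF pair as independent replicates. Gpt2 made up 76.6 to 89.2% of Gpt2 and Gpt per kilobase.

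Got1, the cytosolic aspartate transaminase, was the steadiest member. Got1 (chromosome 19, 43499752 to 43524605) was at 249 to 271 CPM in WT LIF/2i, 269 and 281 CPM in WT LIF, 239 to 263 CPM in KI LIF/2i and 186 to 238 CPM in KI LIF. KI LIF was below all other groups. Its KI to WT difference was -0.37 ± 0.13 on the log2 scale in LIF (edgeR adjusted p = 0.33) and -0.07 ± 0.12 in LIF/2i (adjusted p = 0.771). It made up 93.4 to 96.3% of Got1 and Got2 per kilobase.

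Glul, glutamine synthetase, had the lowest mean CPM of the 9 enzymes in each group, with 21 to 116 counts per sample. It was not the lowest in every KI sample. In KI LIF/2i replicate 3 it was at 18.1 CPM, against 9.57 for Pycr1 and 8.56 for Cbs. In KI LIF replicate 3 it was at 13.1 CPM, against 11.8 for Pycr1. Glul (chromosome 1, 153899944 to 153909723) was at 5.60 to 8.69 CPM in WT LIF/2i, 14.1 and 7.13 CPM in WT LIF, 8.36 to 18.1 CPM in KI LIF/2i and 7.62 to 13.98 CPM in KI LIF. All groups overlapped. The KI to WT difference in LIF/2i was 0.97 ± 0.38 on the log2 scale (edgeR adjusted p = 0.173), and in LIF 0.14 ± 0.42 (adjusted p = 0.949). No Glul difference passed the threshold at this depth.

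Bcat1, the cytosolic branched-chain aminotransferase, was the member with the largest difference between media. Bcat1 (chromosome 6, 144993835 to 145048812) was at 585, 502 and 395 CPM in WT LIF/2i and at 298 and 212 CPM in WT LIF. KI cells in LIF/2i held 1031, 469 and 548 CPM, and those in LIF 313, 107 and 93.1 CPM. In each genotype every LIF sample was below every LIF/2i sample, and KI replicate 1 was the highest KI sample in each medium. In KI, Bcat1 fell on removal of the inhibitors by 2.00 ± 0.43 on the log2 scale, or 3.99-fold (edgeR adjusted p = 0.0147). By replicate number the differences were -1.72, -2.13 and -2.56, lower in 3 of 3. The call was lost without KI LIF replicate 2 (-1.74, adjusted p = 0.0702) or replicate 3 (-1.70, 0.0652), with no filter (-2.02, 0.0528) and with only the groups compared (-1.98, 0.0571).

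In WT, the difference of Bcat1 between media was -0.95 ± 0.48 on the log2 scale (edgeR adjusted p = 0.222). It was called with only the groups compared (-0.94, adjusted p = 0.0176) and with the replicate block (-0.87, adjusted p = 0.038). The block counts the agreeing WT LIF pair as independent replicates. Against WT, KI samples differed by 0.47 ± 0.41 in LIF/2i (adjusted p = 0.554) and -0.58 ± 0.46 in LIF (adjusted p = 0.721). These values moved most without KI replicate 1, to 0.017 in LIF/2i (adjusted p = 0.985) and -1.35 in LIF (adjusted p = 0.137), and were not called under any alternative. Its share of Bcat1 and mitochondrial Bcat2 per kilobase was 62.2 to 71.3% in WT LIF/2i, 56.8 and 62.0% in WT LIF, 67.0 to 83.5% in KI LIF/2i and 28.5 to 61.4% in KI LIF. The KI difference in share between media was -34.4 percentage points (exact permutation p = 0.1, the smallest possible with 3 against 3, and 0.457 after adjustment over the 16 share comparisons made). Its coding exons overlap Gm26666 on the opposite strand, and the use of strand in counting is not given in the sources used here, so reads of the 2 genes cannot be told apart.

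Of 5 isoform partners, 4 were tested (Gpt, Got2, Bcat2 and Pycrl) and 0 were called in any of the 4 comparisons by edgeR. In WT between media, Bcat2 was at -0.44 ± 0.15 on the log2 scale (adjusted p = 0.0708) and Pycrl at 0.58 ± 0.25 (adjusted p = 0.158), both with an unadjusted p under 0.05, and DESeq2 called 1 lower and limma-voom 0.

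**Figure D3:**
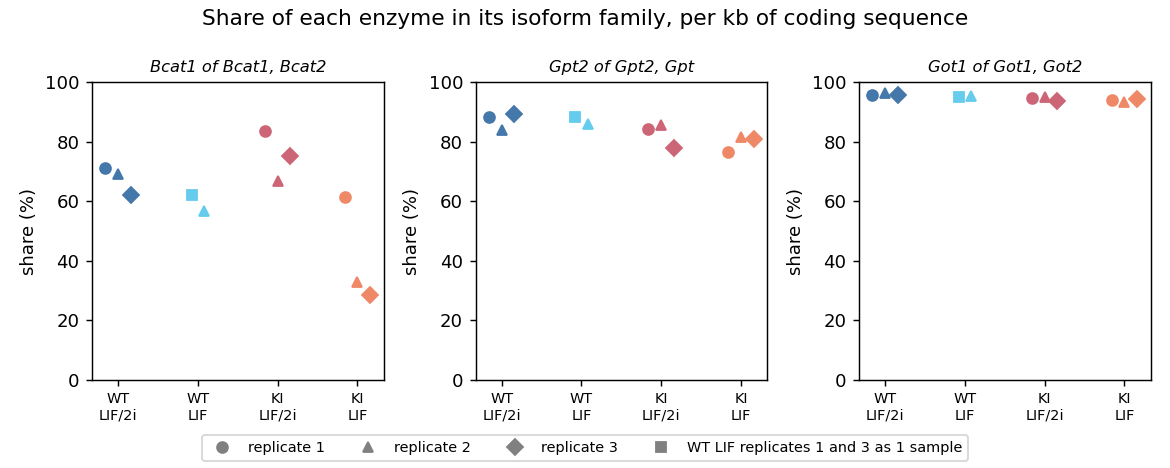
Share of Gpt2, Got1 and Bcat1 in the summed level of each with its isoform partner (Gpt, Got2 and Bcat2), in percent per kilobase of coding sequence (vertical axes, 0 to 100), by group. Points are samples, shaped by replicate number. Bcat1 shares are 28.5 to 61.4% in KI LIF and 67.0 to 83.5% in KI LIF/2i, while Got1 shares are 93.4 to 96.3% in every sample.

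Counted over all 9 enzymes, the comparisons differed in how many moved. In LIF/2i, KI against WT, 0 of 9 were called by edgeR, 3 had an unadjusted p under 0.05 (Cbs, Pycr1 and Glul), and DESeq2 called 1 lower, with 3.86% of all genes lower, and limma-voom 0. Of all genes tested, 0.974% were called higher and 1.25% lower in that comparison. The groups did not overlap for 1 enzyme, Gpt2, lower in KI, while 11.7% of all genes did not overlap with KI higher and 11.1% with KI lower.

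In LIF, KI against WT, 1 of 9 was lower (Pck2), against 0.128% of all genes lower and 0.0151% higher. DESeq2, the 12 libraries counted separately and the replicate block each called 3, namely Pck2, Pycr1 and Gpt2, against 1, 0.656 and 0.841% of all genes called lower under the same settings. The separate libraries and the block count the agreeing WT LIF pair as independent replicates, which can understate the spread in WT LIF. The KI samples lay wholly below the WT samples for 6 of 9 enzymes (Pck2, Cbs, Pycr1, Aldh18a1, Gpt2 and Got1), against 15.8% of all genes, and above for none, against 16%. The median log2 fold change of the 9 was -0.66, with 8 below 0, against 0.00065 for all genes.

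In WT, LIF against LIF/2i, 2 of 9 rose (Pck2 and Aldh18a1) and none fell, no enzyme below 0 having an unadjusted p under 0.05 and DESeq2 and limma-voom calling 0 lower, where 6.31% of all genes were called higher and 6.69% lower. The groups did not overlap for 3 higher enzymes (Pck2, Aldh18a1 and Pycr1) and 2 lower (Gpt2 and Bcat1), against 24.3 and 24.5% of all genes. In KI, 1 of 9 fell (Bcat1), where 4.05% of all genes were called higher and 5.01% lower. Without KI LIF/2i replicate 3, Pck2 (-0.85, edgeR adjusted p = 0.0138) and Gpt2 (-0.85, adjusted p = 0.0108) fell as well. The KI groups did not overlap for 3 lower enzymes (Cth, Got1 and Bcat1) and no higher one, against 13.9 and 13.3% of all genes. The medians of the 9 were 0.07 in WT and -0.24 in KI. Each comparison shares a group of samples with 2 of the others, so their counts are not independent.

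**Figure D4:**
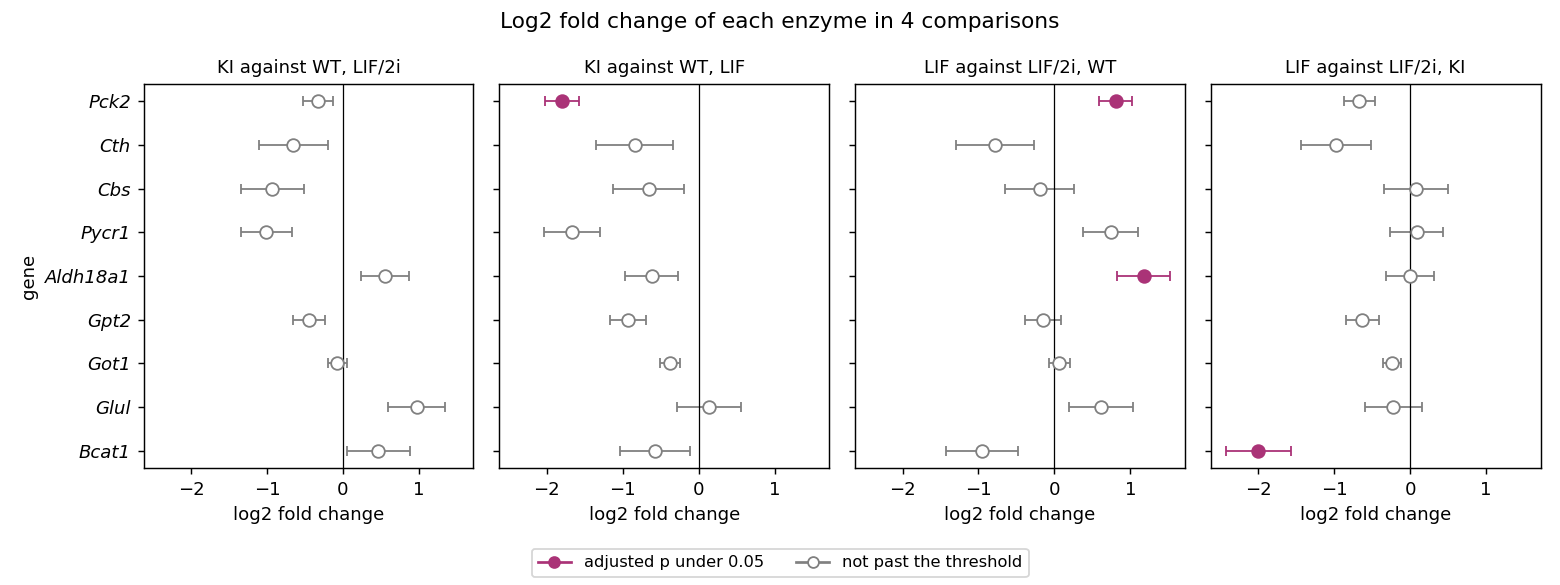
Log2 fold change of each enzyme (horizontal axes) in the 4 comparisons, with bars for the standard error. Filled points passed the threshold of 0.05 on the adjusted p. The filled points are Pck2 in LIF (-1.80), Pck2 and Aldh18a1 between media in WT (0.81 and 1.18) and Bcat1 between media in KI (-2.00).

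The difference between the KI and WT responses to the medium was tested as an interaction. None of the 13239 genes was called (0%) by edgeR, with 798 at an unadjusted p under 0.05, and limma-voom called none, with 691. DESeq2 called 9 higher and 13 lower (0.109%). For Pck2 the interaction was -1.48 ± 0.30 on the log2 scale, with an unadjusted p of 0.000311 (rank 10 of all genes) and an adjusted p of 0.407. DESeq2 called it (-1.45, adjusted p = 0.0139) and limma-voom did not (-1.44, adjusted p = 0.582). Aldh18a1 was at -1.17 ± 0.47 (edgeR adjusted p = 0.818). Of the 9 enzymes 8 were below 0, with a median of -0.66 against -0.03 for all genes. That the medium acted differently on any of these enzymes in KI and WT cells was therefore not shown by edgeR.

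Atf4 mRNA was at 258, 259 and 213 CPM in WT LIF/2i and at 391 and 387 CPM in WT LIF. KI samples in LIF/2i were at 250, 351 and 382 CPM, and those in LIF at 263, 331 and 388 CPM. KI samples spread over the range of both WT groups, and replicate 1 was the lowest KI sample in each medium. Atf4 rose in WT on removal of the inhibitors by 0.67 ± 0.20 on the log2 scale (edgeR adjusted p = 0.0429) and was not called in the other comparisons (KI to WT 0.43 ± 0.18 in LIF/2i and -0.25 ± 0.20 in LIF). It did not pass when WT LIF replicate 2 (0.68, adjusted p = 0.175), the agreeing WT LIF pair (0.67, 0.174), or any 1 WT library in LIF/2i (0.59 to 0.71, adjusted p 0.0847 to 0.106) was left out. These are mRNA levels, and ATF4 protein was not measured.

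Of 43 further ATF4 targets, 42 were tested, Slc7a11 being the exception. In WT, 17 rose and 0 fell on removal of the inhibitors, with a median log2 fold change of 0.78 and 36 above 0. Of all genes, 6.31% rose and 6.69% fell there, with a median of 0.0080. Psat1 and Trib3 rose by 1.67 ± 0.22 (edgeR adjusted p = 0.000962) and 2.24 ± 0.31 (adjusted p = 0.00126). Psat1 is an enzyme of serine synthesis and Trib3 a pseudokinase induced in this pathway. Nars, an asparaginyl-tRNA synthetase, and the transcription factor Atf5 rose by 1.06 ± 0.15 (adjusted p = 0.0017) and 1.95 ± 0.30 (adjusted p = 0.00235). With libraries left out, the count ranged from 8 without the agreeing WT LIF pair to 20 without WT LIF/2i replicate 3, and the other alternatives gave 17 to 25, the highest with 12 libraries counted separately and with the replicate block. Separate libraries and the block count that pair as independent replicates. In KI, 1 rose and 2 fell on removal of the inhibitors, with a median of 0.10, where 4.05% of all genes rose and 5.01% fell. Asns, asparagine synthetase, fell by 2.31 ± 0.25 (adjusted p = 0.000469), and Cebpb rose by 1.99 ± 0.41 (adjusted p = 0.0115). The transporter Slc7a1 fell by 0.87 ± 0.25 (adjusted p = 0.0486). The Slc7a1 call was lost whichever KI sample was left out, and that of Cebpb without KI LIF replicate 2 (1.85, adjusted p = 0.0501) or 3 (1.76, 0.0556). WT samples moved the same way for Asns and Cebpb. Asns was at 1183 to 1303 CPM in WT LIF/2i and 513 and 932 CPM in WT LIF, and Cebpb at 5.20 to 7.91 and 26.1 and 38.1 CPM.

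In LIF, KI against WT, 3 of the 42 fell and 0 rose, with a median of -0.70 and 37 below 0. Of all genes tested, 0.128% fell and 0.0151% rose, with a median of 0.00065. Asns stood at 513 and 932 CPM in WT LIF and at 180 to 292 CPM in KI LIF, and fell by 1.69 ± 0.26 on the log2 scale (edgeR adjusted p = 0.0313). Psph and Psat1, enzymes of serine synthesis, fell by 1.28 ± 0.21 (adjusted p = 0.0428) and 1.29 ± 0.22 (adjusted p = 0.0459). The 3 calls were lost together without KI LIF replicate 2, replicate 3 or the agreeing WT pair, which left 0, while 1 was left without KI LIF replicate 1. Psph was also lost without WT LIF replicate 2 (-1.54, adjusted p = 0.0723). Limma-voom called 0. DESeq2 called 11, the 12 libraries counted separately 11 and the replicate block 12, against 1, 0.656 and 0.841% of all genes called lower. Separate libraries and the block count the agreeing WT LIF pair as independent replicates. In LIF/2i, 1 rose and 0 fell (Slc7a3, an amino acid transporter, 1.33 ± 0.28, adjusted p = 0.0363), a call lost when any library of the 2 groups but KI LIF/2i replicate 1 was left out. The median there was 0.09, and 0.974% of all genes were called higher and 1.25% lower. In the interaction the list had a median of -0.72, against -0.03 for all genes. By edgeR and limma-voom 0 of 42 were called, with 21 at an unadjusted p under 0.05 by edgeR. DESeq2 called 5 lower, against 0.109% of all genes.

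Other enzymes of amino acid metabolism were not called in LIF between genotypes (0 of 34, median -0.09), with 7 at an unadjusted p under 0.05, 2 called by DESeq2 and 0 by limma-voom. By edgeR 0.128% of all genes fell and 0.0151% rose in that comparison, and by DESeq2 1% fell. Between media, 7 fell and 3 rose in WT, and 6 fell and 0 rose in KI. Of all genes, 6.69% fell and 6.31% rose in WT, and 5.01% fell and 4.05% rose in KI. Cdo1, cysteine dioxygenase, fell by 2.91 ± 0.36 on the log2 scale in WT (edgeR adjusted p = 0.00083) and by 2.29 ± 0.32 in KI (adjusted p = 0.00146). Gss, glutathione synthetase, fell by 1.73 ± 0.25 in WT (adjusted p = 0.0018) and by 1.99 ± 0.24 in KI (adjusted p = 0.000652). Tdh, threonine dehydrogenase, and Amt, a subunit of the glycine cleavage system, fell by 1.64 ± 0.29 and 1.10 ± 0.20 in WT and by 1.49 ± 0.25 and 0.84 ± 0.17 in KI (adjusted p of 0.00419, 0.0043, 0.00378 and 0.0109). In WT, 2 fell and 1 rose without WT LIF replicate 2, which ended the calls of Tdh and Amt, 4 fell without WT LIF/2i replicate 1, and 0 rose without the agreeing pair. In LIF/2i, KI against WT, 1 rose, against 0.974% of all genes. This was Dld, the dehydrogenase shared by several complexes (0.63 ± 0.15, edgeR adjusted p = 0.0479), and the call was lost when any library but KI LIF/2i replicate 1 was left out. Without that replicate 6 of these enzymes were lower. The share of all genes lower in that setting was not counted, so the 6 cannot be read against it.

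**Figure D5:**
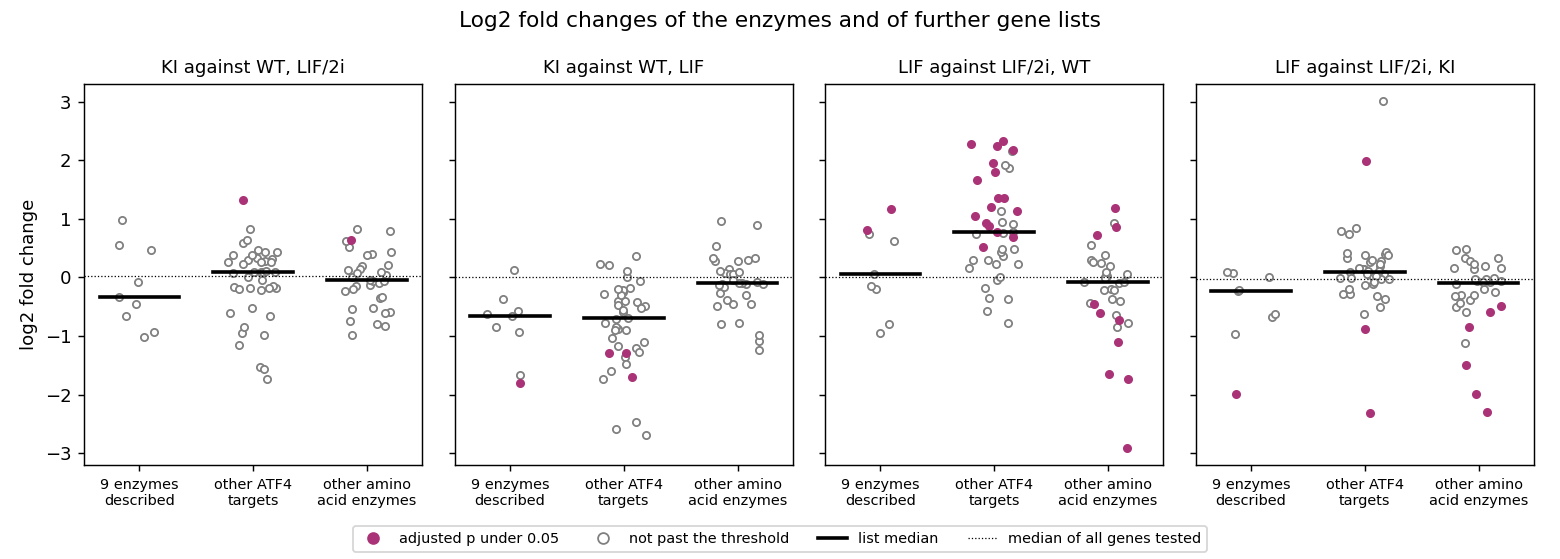
Log2 fold changes of the 9 enzymes, of 42 other ATF4 targets and of 34 other amino acid enzymes (vertical axis) in the 4 comparisons. Points are genes, filled where the adjusted p is under 0.05. Solid bars are list medians and dotted lines the median of all genes. The median of the other ATF4 targets is 0.78 between media in WT and -0.70 for KI against WT in LIF, where the median of the 9 enzymes is -0.66.

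For the 3 members called in any comparison, the genes whose centred log2 levels differed least over the 11 samples were named. They were sought among 10203 protein-coding genes with a mean of at least 5 CPM, leaving out predicted genes, clone names and pseudogenes. Closest to Pck2 were Gjb5, Acaa2 and Efhd2, with root mean square differences of 0.27, 0.33 and 0.35 on the log2 scale, where the SD of Pck2 itself over the samples was 0.68. Closest to Aldh18a1 were Abca7, Pter and Kif24 (0.27, 0.28 and 0.28, against an SD of 0.60). Close to Bcat1 were Dcbld1 and Tbx3 (0.36 and 0.43, against an SD of 1.05). None of these 8 genes is in the lists of ATF4 targets or amino acid enzymes. The likeness is a description over samples that share genotype and medium.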

How the data were processed

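The authors deposited raw counts per gene, covering the coding sequence of a transcript each per the file headers. Tools listed in the submitters' processing notes were UMI-tools 1.0.1, Bowtie 1.3.0 and cutadapt 3.4. Not given in the sources used here were the genome build, the counting tool and how strand and repeated matches were handled, so reads shared by near-identical genes may be split. Per the labels' protocols, RNA came from the supernatant of spun lysates and was depleted of ribosomal RNA. Coordinates were added by transcript from GENCODE M21.

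Genes were filtered with filterByExpr (minimum count 10), scaled by TMM and fitted with robust glmQLFit in edgeR 4.0.16 (R 4.3.3), 1 mean for each group and 11 samples, with WT LIF replicates 1 and 3 as their rounded mean. Contrasts were tested two-sided with Benjamini-Hochberg adjustment over 13239 genes at 0.05, and the scripts were tested on simulated data. The biological coefficient of variation was 0.234, and standard errors come from the F statistic. Depth was 2307219 to 9713857 counts. DESeq2 1.42.0, limma-voom (limma 3.58.1), other scalings, filters, sample sets and the replicate block were alternatives. Those with 12 libraries, separate or with the block, count the agreeing WT LIF pair as independent replicates.

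The enzymes and lists were chosen with earlier results of these data known. All 9 enzymes, Atf4, Eif2s1, up to 4 called genes per list and comparison with the smallest p, and 3 genes most like each called enzyme are named. Replicate numbers paired the KI samples across media by the correlation of their deviations (0.5, 0.37 and 0.22, against -0.42 to 0.21 for unlike numbers). Other comparisons each had a same-numbered pair under 0.1. Of the genes these rules cover, 2 are not reported here. A planned comparison of protein sequences was not made, and Ccbl1 was not analysed here.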

Additional observations from a re-analysis of the deposited data

How the results depend on the processing

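Of 756 fold changes of the 9 enzymes under the alternatives, 696 kept their direction and side of the threshold, 17 became called, 18 lost a call and 25 changed sign. No called value changed sign. Where 1 WT LIF sample was left, it was assumed to vary like the other groups. DESeq2, voom, other scalings, other filters, 12 separate libraries and the block left the Pck2 call in LIF in place. Depth, lowest in KI LIF replicates 3 and 1, and the 2 samples of WT LIF limit precision, and the cause of lost calls was not tested.

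Values that changed sign were those of Aldh18a1 between media in KI (-0.0030 by limma-voom, -0.017 with no filter), and of Glul for KI against WT in LIF (-0.010 with 12 libraries counted separately). Leaving out a library gave ranges of -0.11 to 0.19 for Aldh18a1, -0.30 to 0.73 for Cbs, -0.23 to 0.38 for Pycr1 and -0.48 to 0.036 for Glul between media in KI. For KI against WT in LIF the ranges were -0.30 to 0.36 for Glul and -1.47 to -0.53 for Cth, and without the agreeing WT LIF pair Glul was at 0.70 and Cth at 0.22. For the interaction they were -0.80 to 0.13 for Cth, which was at 0.87 without that pair, and -0.11 to 0.93 for Cbs.

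The settings differ in how many of all genes they call, so the counts below do not describe the lists alone. Shares of all genes were counted only where given above. With DESeq2, enzymes called lower numbered 1 in LIF/2i and 3 in LIF for KI against WT, 2 between media in KI and 1 in the interaction. Between media DESeq2 called 855 of all genes lower in KI and 1193 in WT, against 663 and 886 by edgeR. Of other ATF4 targets it called 2 higher and 2 lower in LIF/2i, 11 lower in LIF, 1 lower between media in WT and 5 lower in the interaction, with 1 isoform partner lower in WT and 2 other enzymes lower in each medium. Limma-voom called 1 other target and 1 other enzyme lower in LIF/2i, 0 other targets lower in LIF, and 1 lower between media in each genotype. DESeq2 size factors and a minimum count of 30 each gave 0 other enzymes higher in LIF/2i and 1 other target lower between media in KI. Library totals alone gave 1 other target lower in KI. With no filter, 5 other targets and 1 other enzyme were lower in LIF, 1 of the 9 enzymes rose between media in WT and 0 fell in KI. With only the groups compared, 0 other targets and 0 other enzymes were higher in LIF/2i, and 1 of each was lower in LIF. That target was not Asns, Psph or Psat1. In the same setting 1 of the 9 rose and 1 fell in WT, and 0 fell in KI. With 12 libraries counted separately, 1 other target and 2 other enzymes were lower in LIF/2i, and 3 of the 9, 11 other targets and 2 other enzymes were lower in LIF. Between media 1 isoform partner was then lower in WT and 2 of the 9 in KI.

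With the replicate block over 12 libraries, 2 other targets were higher, 1 other target and 3 other enzymes lower in LIF/2i, and 3 of the 9, 12 other targets and 2 other enzymes lower in LIF. Between media, 1 of the 9, 1 other target and 1 isoform partner were lower in WT, and 2 of the 9 were lower and 3 other targets higher in KI. With the replicate block in KI samples only, 2 of the 9 were lower, and 3 other targets, 1 isoform partner and 1 other enzyme higher. Aldh18a1 changed sign in KI under both blocks (-0.018 and -0.0029). The calls of the 9 enzymes that a block changed stand beside their results, and it changed no other.

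Leaving out a library, or the agreeing WT LIF pair, gave these ranges of counts. The shares of all genes called in those fits were not counted. For KI against WT in LIF/2i, 0 to 1 of the 9 enzymes were lower, 0 to 1 other targets higher and 0 to 2 lower, and 0 to 1 other enzymes higher and 0 to 6 lower. In LIF, 0 to 1 of the 9, 0 to 3 other targets and 0 to 1 other enzymes were lower and 0 to 1 other enzymes higher. Between media in WT, 0 to 2 of the 9 rose, 8 to 20 other targets rose and 0 to 1 fell, and 0 to 3 other enzymes rose and 2 to 6 fell. In KI, 0 to 3 of the 9 fell, 0 to 2 other targets rose and 1 fell, and 0 to 1 isoform partners and 0 to 1 other enzymes rose. Over all 16 alternatives of that comparison, 4 to 8 other enzymes fell.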
